A study of Mus musculus with 54 samples.

Results

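The genes described here carry out DNA replication and mitosis in mouse tissues. The list holds 35 genes, 15 of replication and 20 of mitosis, chosen by symbol. A gene had a value where the array's annotation gave a probe set that symbol and no other, which held for 30 of the 35 genes, 14 of replication and 16 of mitosis, out of 18759 genes with such a probe set. Tyms, Kif20a, Nusap1 and Ube2c had only probe sets that carry several symbols and are not analysed here, nor is Ccnb1, which the annotation used here does not list. RNA came from C57BL6 mice labelled 14 weeks old, either control or swim. The swim regime began at 11-12 weeks of age with 9 days of daily swims lengthened in steps of 10 min, after which mice swam for 3 weeks in 2 sessions of 90 min a day, at 9 AM and 3 PM, with 4 hours between. The labels give no handling for controls and no time between the last swim and collection. Each of 54 arrays held 1 tissue, with 4 control and 4 swim arrays for spleen, visceral white fat, subcutaneous white fat, kidney and brain, 3 and 4 for liver, and 4 and 3 for muscle. No label says that arrays of a group came from different mice, so p-values measure the spread between these arrays.

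Before a cell divides it copies its DNA once. The minichromosome maintenance proteins Mcm2 to Mcm7 form the ring that unwinds DNA, Cdc6 loads that ring at origins, and Cdc45 and the GINS complex switch it on. Mitosis then separates the copies, driven by cyclins with Cdk1, by Plk1 and the aurora kinases, by spindle motors and by the anaphase-promoting complex. These RNAs are made mainly by cells in cycle and serve as markers of proliferation. In adult mice the spleen holds dividing blood precursors and lymphocytes, while most liver cells rest outside the cycle.

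The promoters of the members that the results turn on are shown because replication and mitosis genes differ in how often they carry certain short sequences near their start sites. Each line gives the 200 bases before the RefSeq transcription start on GRCm38.p6, 5′ to 3′ on the gene's own strand. Capitals mark the words searched, on both strands: the E2F words TTTCCCGC, TTTCGCGC, TTTGCCGC and TTTGGCGC, bound by the E2F factors, the cell cycle homology word TTTGAA, and the word CCAAT. Where 2 E2F words on opposite strands overlap, the capitals run across both.
Mcm5 (chr8:75109309-75109508, plus strand): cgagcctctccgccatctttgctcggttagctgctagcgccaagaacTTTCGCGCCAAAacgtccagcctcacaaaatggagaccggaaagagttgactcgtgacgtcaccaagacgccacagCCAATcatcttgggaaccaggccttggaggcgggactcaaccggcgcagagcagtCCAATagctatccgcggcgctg
Mcm6 (chr1:128359706-128359905, minus strand): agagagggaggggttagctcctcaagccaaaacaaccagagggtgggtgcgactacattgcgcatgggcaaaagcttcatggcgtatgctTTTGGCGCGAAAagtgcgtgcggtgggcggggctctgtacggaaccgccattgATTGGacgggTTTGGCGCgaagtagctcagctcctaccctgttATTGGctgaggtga
Mcm7 (chr5:138171884-138172083, minus strand): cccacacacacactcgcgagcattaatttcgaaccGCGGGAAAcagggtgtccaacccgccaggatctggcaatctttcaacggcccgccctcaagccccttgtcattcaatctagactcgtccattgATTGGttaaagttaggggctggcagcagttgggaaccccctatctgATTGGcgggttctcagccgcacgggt
Tk1 (chr11:117826015-117826214, minus strand): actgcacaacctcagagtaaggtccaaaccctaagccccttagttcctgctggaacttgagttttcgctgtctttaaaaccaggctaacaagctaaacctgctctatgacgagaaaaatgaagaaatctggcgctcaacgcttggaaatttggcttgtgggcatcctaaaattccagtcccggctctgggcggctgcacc
Cdk1 (chr10:69352913-69353112, minus strand): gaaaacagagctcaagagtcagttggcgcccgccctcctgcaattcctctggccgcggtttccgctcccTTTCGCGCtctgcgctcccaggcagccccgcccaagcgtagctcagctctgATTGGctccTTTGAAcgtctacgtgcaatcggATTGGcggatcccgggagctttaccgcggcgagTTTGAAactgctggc
Ccnb2 (chr9:70421555-70421754, minus strand): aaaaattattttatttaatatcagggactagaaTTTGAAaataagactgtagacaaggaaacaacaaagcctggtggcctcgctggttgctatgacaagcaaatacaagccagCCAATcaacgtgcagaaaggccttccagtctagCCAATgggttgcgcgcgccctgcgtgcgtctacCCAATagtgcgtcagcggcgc
Cdc20 (chr4:118437344-118437543, minus strand): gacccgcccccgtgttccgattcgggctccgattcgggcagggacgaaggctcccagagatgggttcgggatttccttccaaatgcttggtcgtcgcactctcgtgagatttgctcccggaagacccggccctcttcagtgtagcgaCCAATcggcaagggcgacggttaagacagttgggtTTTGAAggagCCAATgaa
Plk1 (chr7:122159235-122159434, plus strand): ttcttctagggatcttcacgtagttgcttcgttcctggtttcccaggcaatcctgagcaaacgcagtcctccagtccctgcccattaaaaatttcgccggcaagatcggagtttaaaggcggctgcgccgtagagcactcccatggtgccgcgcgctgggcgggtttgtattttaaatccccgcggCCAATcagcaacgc

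The windows searched ran from 250 bases before to 50 after the start, and 13 replication and 16 mitosis genes had at least 1. An E2F word stood in 2.26% of all 32851 windows. Among replication genes 5 of 13 held one, namely Mcm3, Mcm5, Mcm6, Mcm7 and Cdc6. Among mitosis genes 1 of 16 did, Cdk1, the kinase that starts mitosis. TTTGAA stood in 17.9% of all windows, and CCAAT in 37.4%. CCAAT was common to both lists, in 10 of 13 replication genes and 14 of 16 mitosis genes. Both stood together in 6.95% of all windows, in those of 2 of 13 replication genes and of 11 of 16 mitosis genes. In Cdc20, the activator of the anaphase-promoting complex, TTTGAA began 18 bases before the start. It lay between CCAAT words that began 53 and 8 bases before the start. In Plk1 the TTTGAA lay past the start, outside the bases shown. Tk1 held none of the words, and for Mcm7 the first of its 2 windows is shown. The other Mcm7 window held CCAAT but no E2F word. A word is a match of letters only, and no binding was measured.

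Values are log2 of the deposited signal plus 16, quantile normalized so that arrays compared share 1 distribution, and a difference is swim minus control on that scale, which understates changes of weak signals. Differences were tested with limma, adjusted by Benjamini-Hochberg over all genes tested. "Rose" and "fell" are used below for an adjusted p under 0.05. Probe sets in the lowest 40% by mean in a tissue were left out of its test, so weakly detected members have no test there. Limma gave an unadjusted p under 0.05 to 34% of all genes tested in spleen, 21.4% in liver and 37.8% in visceral fat. The shares were 21.6% in subcutaneous fat, 37.9% in kidney, 16.3% in brain and 31.5% in muscle. Counts at that level given below are to be read against these shares. Every tissue carried its own marker genes on all its arrays. Some arrays also carried another tissue's: liver markers averaged 10.44 on spleen control 26 against 4.75 to 7.83 on the other spleen arrays, and muscle markers 9.28 on liver control 52 against 5.64 to 5.83. In subcutaneous fat, kidney markers averaged 13.19 on swim 22, muscle markers 11.29 on swim 23, and spleen markers 11.27 to 11.43 on controls 18, 19 and 20, 10.32 on swim 23 and 8.85 on swim 22, against 5.18 to 5.45 on the rest.

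Levels at rest come from the 27 control arrays normalized together, so they differ slightly from the values within a tissue. In control mice all 30 members had their highest mean in spleen, the blood-filtering organ that also makes red cells in mice. Spleen exceeded the mean of the other 6 tissues by 1.07 to 5.06, with a median of 2.29 for replication and 3.49 for mitosis genes, and 30 of 30 passed the test, where 29.3% of all genes did in that direction. Every spleen control array lay above every other control array for 29 of the 30, and for 9.47% of all genes. The widest difference was that of Mki67, the proliferation antigen that coats mitotic chromosomes, at 5.06 ± 0.29 (SE). Mki67 averaged 11.30 ± 0.16 (SD, n = 4) in spleen, 8.06 ± 1.12 (n = 4) in subcutaneous fat, 6.69 ± 0.69 (n = 3) in liver and 6.10 ± 0.52 (n = 4) in visceral fat. Kidney followed at 6.05 ± 0.12, muscle at 5.60 ± 0.48 and brain at 4.93 ± 0.14 (n = 4 each). Neighbours in that order below subcutaneous fat lay within their SDs of each other, except muscle and brain, whose means differed by more than either SD.

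The narrowest difference was that of Gins1, a subunit of the GINS complex, at 1.07 ± 0.10. Gins1 averaged 6.89 ± 0.12 in spleen and 6.88 ± 0.12 in liver, a gap inside their SDs, and visceral fat was next at 6.16 ± 0.12. Cdc6 averaged 9.37 ± 0.20 in spleen and 6.07 ± 0.71 in subcutaneous fat, its next tissue. Pcna, the clamp that holds polymerases on DNA and also serves repair, averaged 11.06 ± 0.07 in spleen and stayed between 9.07 ± 0.04 (muscle) and 10.04 ± 0.38 (subcutaneous fat) elsewhere. Pcna therefore spanned a narrower range across tissues than Mki67 did.

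The second highest tissue was subcutaneous fat for 22 of 30 members, the tissue in which 3 of the 4 control arrays carried spleen markers. Liver was second for 5, Mcm10, Gins1, Tk1, Cdc20 and Prc1. Muscle was second for Rrm1, the large subunit of ribonucleotide reductase, which supplies DNA building blocks, at 9.11 ± 0.08 against 10.28 ± 0.07 in spleen and 8.32 ± 0.45 in subcutaneous fat. It was also second for Aurka, the kinase of spindle poles, where control 43 stood alone. Brain was lowest for 21 members and muscle for 7.

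**Figure D1:**
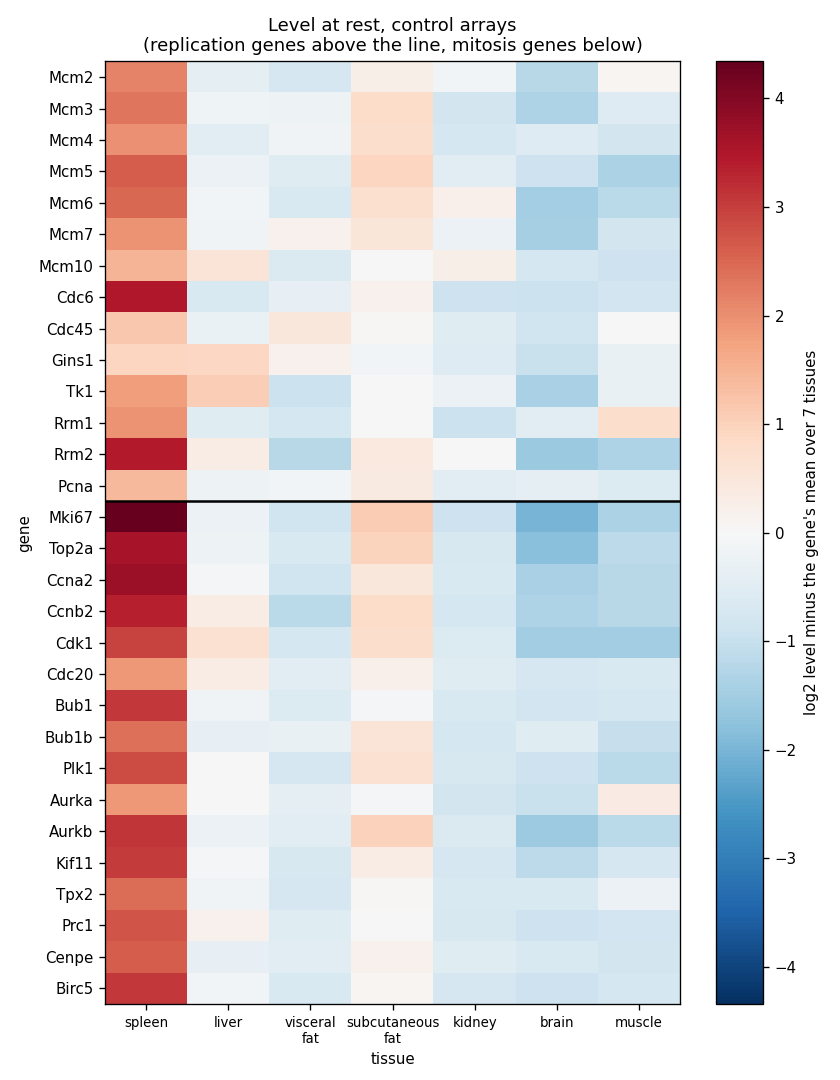
Mean log2 level of each of the 30 members in the control arrays of 7 tissues, as the difference from that gene's mean over tissues (colour bar, log2), replication genes above the line. Spleen is highest in all 30 lines, and the mitosis lines show the wider differences (median 3.49 against 2.29 for spleen minus the other tissues).

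Liver at rest was set against the 5 tissues other than spleen. These include subcutaneous fat, whose controls 18, 19 and 20 carried spleen markers, and the part of that in the counts was not tested. In this comparison 12 of 30 members were higher, 4 of replication and 8 of mitosis, and none passed as lower. Of all 18759 genes 58.6% passed in either direction, 4688 as higher. Tk1, thymidine kinase, which salvages thymidine for DNA synthesis, led at 1.65 ± 0.21 (adjusted p = 2.63e-07). It averaged 7.77 ± 0.26 (SD, n = 3) in liver, 8.50 ± 0.07 in spleen, 6.70 ± 0.85 in subcutaneous fat and 5.30 ± 0.13 in brain. Cdk1 was higher by 1.38 ± 0.26, Gins1 by 1.27 ± 0.12, Rrm2, the small subunit of ribonucleotide reductase, by 1.07 ± 0.27 and Mcm10, which joins the helicase to polymerase, by 0.96 ± 0.13. Rrm1 had the lowest difference, -0.25 ± 0.12 (adjusted p = 0.0711). Without liver control 50, whose mitosis genes stood high, 5 were called: Tk1, Cdk1, Gins1, Rrm2 and Mcm10. The share of all genes called in that fit is not given here. Calls over all genes, 4688 higher and 6313 lower, became 6947 and 4698 once each array was centred on its median, which put 19 members higher.

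In spleen no member passed the test for a change with swimming, while 14.0% of all 11356 genes did. Limma gave 15 of the 30 an unadjusted p under 0.05, against 34% of all genes. All 30 differences were negative, with a median of -0.38 for replication genes (-0.70 to -0.11) and -0.47 for mitosis genes (-0.81 to -0.22), against 0.00 over all genes. The 30 followed 1 pattern: swim arrays 31 and 32 were the lowest pair of the 8 arrays for 30 of 30 members. Fewer dividing cells and less of these RNAs per cell cannot be told apart in whole tissue.

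Among replication genes, Tk1 read 8.43, 8.46, 8.33 and 8.45 on the control arrays and 8.05, 8.37, 7.70 and 7.92 on the swim arrays. Swim 30 lay within the control range and the other 3 below it, a difference of -0.41 ± 0.12 (SE, adjusted p = 0.0562). Mcm5, a helicase subunit, read 9.36, 9.30, 9.25 and 9.34 against 9.11, 9.24, 8.71 and 8.65. Its groups did not overlap, though swim 30 lay just under the lowest control, and the difference was -0.38 ± 0.13 (adjusted p = 0.0728). Mcm7, another subunit, read 10.17, 10.02, 9.97 and 10.12 against 9.90, 9.95, 9.32 and 9.36, again without overlap, a difference of -0.44 ± 0.15 (adjusted p = 0.0767). Rrm2 had the widest negative difference of the replication genes, -0.70 ± 0.28, and Pcna the narrowest, -0.11 ± 0.15.

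Among mitosis genes, Plk1, the polo kinase that drives entry into mitosis and spindle assembly, read 8.78, 9.06, 8.82 and 8.75 on control and 8.40, 8.71, 7.50 and 7.57 on swim arrays. The groups did not overlap, and swim 31 and 32 lay far below every control (-0.81 ± 0.26, adjusted p = 0.0648). Aurkb, the aurora kinase that corrects chromosome attachment, read 9.33, 9.28, 9.12 and 9.25 against 8.93, 9.16, 8.22 and 8.32. Swim 30 fell among its controls, and the difference was -0.59 ± 0.19 (adjusted p = 0.0733). Mki67 read 10.99, 11.30, 11.01 and 10.87 against 10.84, 11.21, 9.90 and 10.25, so swim 29 and 30 lay close to or among controls and 31 and 32 below them. Groups did not overlap for 4 of the 30 members, Plk1, Mcm7, Mcm5 and Mcm3, against 23.7% of all genes.

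**Figure D2:**
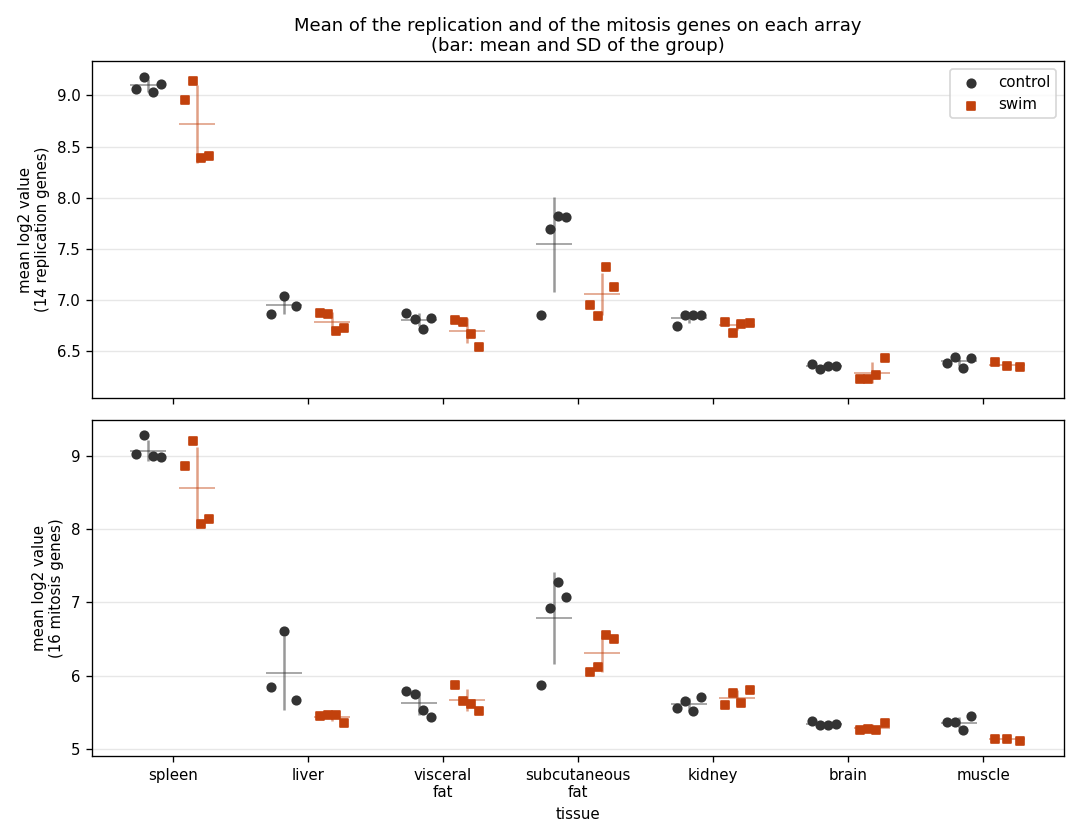
Mean log2 value of the 14 replication genes (top) and 16 mitosis genes (bottom) on each array, by tissue, with control arrays as circles, swim arrays as squares and bars for each group's mean and SD. In spleen swim arrays 31 and 32 stand apart, in liver control 50 stands high for mitosis genes, and in subcutaneous fat 3 of the 4 control arrays stand high.

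The array means repeat that pattern. The 14 replication genes averaged 9.06, 9.18, 9.03 and 9.11 on control and 8.95, 9.14, 8.38 and 8.41 on swim arrays, and the 16 mitosis genes 9.02, 9.28, 9.00 and 8.98 against 8.87, 9.20, 8.07 and 8.13. Markers of erythroid precursors, the dividing cells that become red cells, were low on the same arrays: their 14 genes averaged 10.34, 10.57, 10.37 and 10.15 on control and 9.99, 10.49, 8.82 and 9.07 on swim arrays. None of the 14 passed limma's test (8 at an unadjusted p under 0.05), and all had negative differences, with a median of -0.78. With the erythroid mean as a covariate, a setting chosen after seeing the data, 17 of the 30 members had negative differences, the median was -0.01 and 0 were called (limma, 4 at an unadjusted p under 0.05). That mean was low on the same swim arrays as the members, so the covariate takes up whatever those arrays carry. Where the members' difference came from cannot be told from this fit. Without swim 31 and 32, also chosen after seeing the data, 18 of 30 were negative with a median of -0.06, and 0 were called (limma, 1 at an unadjusted p under 0.05). Those arrays were left out because they were lowest for the members. The fit without them therefore cannot show whether the members changed.

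Other cell markers were read on the same spleen arrays. Array means of cell lists, here and below, cover all list genes on the array, also those under the filter. For neutrophils in spleen these were 14 genes, of which 8 were tested. Neutrophil genes fell, 8 of 8 tested, with a mean of 7.01 to 7.78 on control and 5.32 to 6.01 on swim arrays. Megakaryocyte genes fell for 8 of 9, macrophage genes for 8 of 10 and endothelial genes for 5 of 12, and for each list the means of the 4 swim arrays lay below those of the 4 controls. B cell genes, 0 of 11 called (limma, 5 at an unadjusted p under 0.05), averaged 11.26 to 11.37 on control and 11.29 to 11.54 on swim arrays. Of 13 T and NK cell genes 2 rose and 2 fell, with means of 8.91 to 9.01 against 8.86 to 9.11. Germinal centre and plasma cell genes, 0 of 10 called (limma, 1 at an unadjusted p under 0.05), averaged 7.58 to 7.90 against 7.38 to 8.02. The part of these cell types in the members' values was not tested further.

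**Figure D3:**
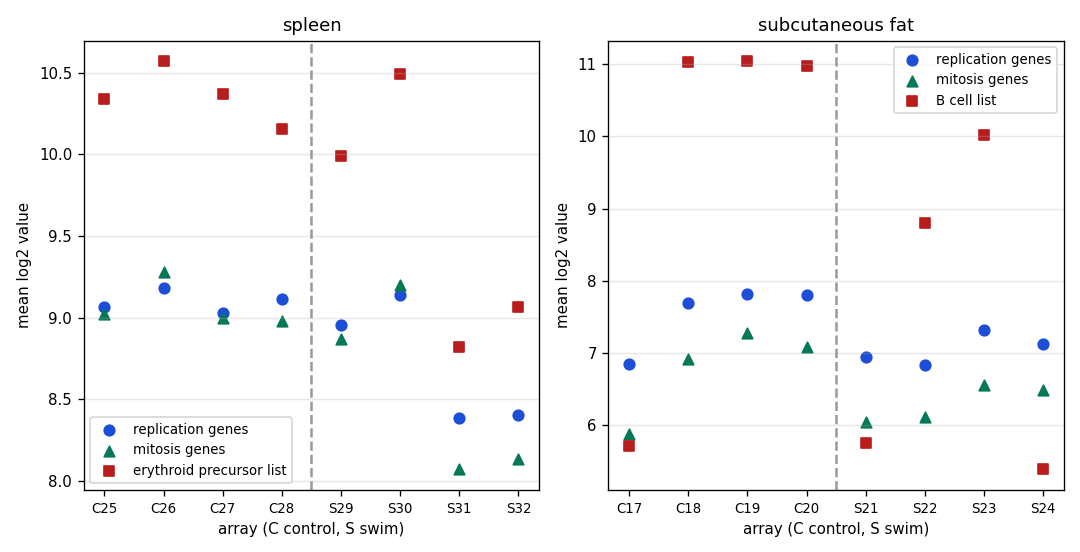
Mean log2 value on each array of the replication genes, the mitosis genes and 1 cell list, erythroid precursors in spleen (left) and B cells in subcutaneous fat (right), with C for control and S for swim. In spleen the 3 means drop together on S31 and S32, and in subcutaneous fat they stand highest on C18, C19 and C20.

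The spleen counts depended on scale and on single arrays. On the values as deposited all 30 members fell, while all genes shifted by a median of -0.27 and calls split into 66 higher and 5061 lower, against 799 and 792 after quantile normalization. With arrays centred on their medians 5 fell (Aurkb, Cdc20, Mcm5, Plk1 and Tk1), beside 281 higher and 1350 lower calls in all, and without swim 30, 20 fell, where 10.7% of all 11371 genes did. All 30 differences stayed negative under the 3 scalings, also relative to the median of all genes.

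In liver, 5 of 19 tested members changed, where 4.00% of all 11203 genes did: the helicase subunits Mcm4, Mcm5, Mcm6 and Mcm7 fell and Tk1 rose. Mcm4 read 7.02, 7.10 and 6.98 on the 3 control arrays and 6.55, 6.60, 6.31 and 6.50 on the 4 swim arrays. Every swim array lay below every control, a difference of -0.55 ± 0.08 (SE, adjusted p = 0.0165), a level 1.46 times lower. Mcm6 read 7.11, 7.38 and 7.23 against 6.86, 6.65, 6.56 and 6.63, with no overlap (-0.57 ± 0.09, adjusted p = 0.0204). Mcm7 read 8.29, 8.12 and 7.97 against 7.58, 7.69, 7.59 and 7.66, with no overlap and the swim arrays close together (-0.50 ± 0.08, adjusted p = 0.0207). Mcm5 read 6.40, 6.46 and 6.25 against 6.06, 5.79, 5.79 and 5.67, with no overlap (-0.54 ± 0.10, adjusted p = 0.0291).

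The other subunits of the ring were also lower without passing the test. Mcm3 read 6.31, 6.28 and 6.17 against 6.06, 5.94, 5.87 and 5.74 (-0.35 ± 0.09, adjusted p = 0.0616), and its groups did not overlap. Mcm2 read 6.45, 6.72 and 6.50 against 6.25, 6.28, 5.88 and 6.02 (-0.45 ± 0.12, adjusted p = 0.0692), also without overlap. The factors that act beside the ring had smaller values: Cdc45 -0.03 ± 0.07, Gins1 -0.24 ± 0.11 and Mcm10 0.22 ± 0.15. The reductase subunits, at -0.13 ± 0.08 for Rrm1 and -0.10 ± 0.23 for Rrm2, and Pcna, at -0.01 ± 0.06, had intervals that reached zero.

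Tk1 went the other way. It read 7.27, 7.54 and 7.87 on control and 8.36, 8.45, 8.31 and 8.42 on swim arrays. The swim arrays lay within a narrow band above every control, a difference of 0.82 ± 0.13 (adjusted p = 0.0172), a level 1.77 times higher. Its second probe set gave 0.76.

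The 6 mitosis genes above the filter were all lower on average, and none passed limma's test. Limma gave all 6 an unadjusted p under 0.05, against 21.4% of all genes. Ccnb2, a B-type cyclin that activates Cdk1, read 7.16, 8.82 and 7.25 on control and 6.53, 6.40, 6.74 and 6.63 on swim arrays (-1.17 ± 0.36, adjusted p = 0.113). The groups did not overlap, and control 50 stood far above the other controls. Cdc20 read 5.98, 6.93 and 5.52 against 5.32, 5.17, 5.32 and 5.16, with the same array highest (-0.90 ± 0.28, adjusted p = 0.114). Differences were -0.76 for Cdk1, -0.76 for Ccna2, the S and G2 phase cyclin, -0.71 for Mki67 and -0.50 for Kif11, a motor that keeps spindle poles apart. Without control 50 they were -0.39 for Cdk1, -0.32 for Ccna2, -0.30 for Mki67 and -0.25 for Kif11, and Cdc20 was under the filter. Control 50 was the highest of the 7 arrays for 15 of the 16 mitosis genes on the array, whose mean was 5.85, 6.61 and 5.67 on control and 5.36 to 5.46 on swim arrays. Over the 19 members groups did not overlap for 12, against 20.6% of all genes.

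Leaving out single arrays moved liver calls across the threshold, while the differences of the called members kept their direction. Over 7 such fits Mcm4 ran from -0.58 to -0.49, Mcm5 from -0.62 to -0.49 and Mcm6 from -0.63 to -0.49. Mcm7 ran from -0.58 to -0.42 and Tk1 from 0.68 to 0.99. The count of members called varied, and the share of all genes called in each such fit is not given here. Without control 50 the count was 1 (Ccnb2, -0.63, adjusted p = 0.0419), while Mcm4 stood at -0.51 (adjusted p = 0.0557), Mcm6 at -0.49 (0.0635), Mcm7 at -0.49 (0.0629), Mcm5 at -0.49 (0.0885) and Tk1 at 0.81 (0.0569). It was also 1 without swim 54 (Mcm4), 2 without control 49 (Mcm6 and Tk1) and 3 without swim 55 or swim 56. Macrophage genes fell in the same livers, 10 of 11, with means of 8.64 to 8.72 on control and 7.67 to 8.17 on swim arrays, and their part in these values was not tested.

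**Figure D4:**
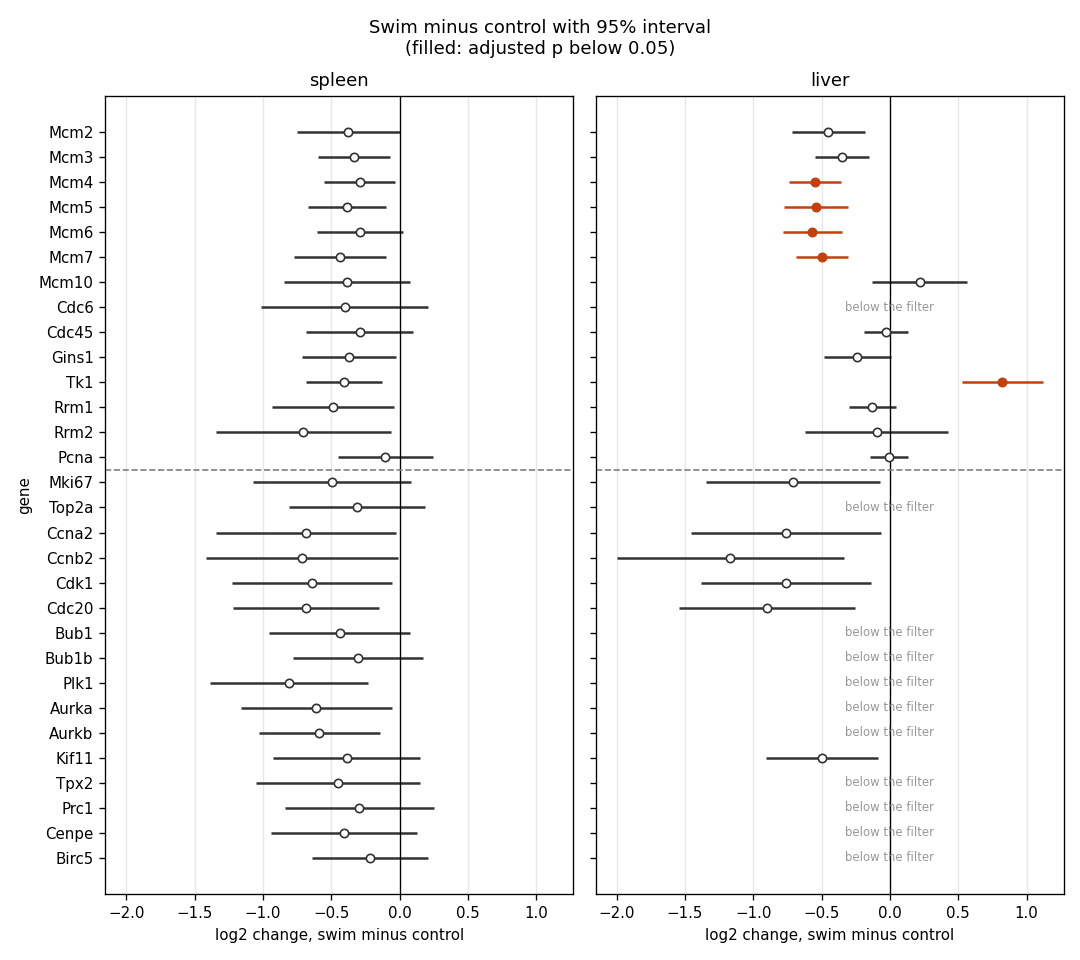
Swim minus control (log2) with its 95% interval for each member in spleen (left) and liver (right), replication genes above the dashed line; filled points have an adjusted p under 0.05 and members under the low-signal filter have no interval. Every spleen point lies left of 0, and in liver Tk1 lies right at 0.82 while Mcm4 to Mcm7 lie left at -0.50 to -0.57.

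The swim effects of the 2 tissues were compared directly in 1 fit of their 15 arrays. Tk1 differed, with an effect in spleen lower than that in liver by -1.19 ± 0.19 (95% interval -1.61 to -0.78, adjusted p = 0.00347), and was the 1 member of 30 called, where 10.1% of all genes were. Its call held in each of the 15 fits that left out 1 array. For the helicase subunits the intervals of the difference spanned zero, -0.19 to 0.53 for Mcm4 and -0.50 to 0.40 for Mcm7, as they did for Ccnb2, -0.84 to 1.39. These intervals do not show that the tissues responded alike.

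In kidney, 3 of 16 tested members changed, where 24.4% of all 11610 genes did. Mcm7 read 8.22, 8.19, 8.13 and 8.25 on control and 8.04, 7.88, 7.72 and 7.71 on swim arrays, with no overlap (-0.36 ± 0.07, adjusted p = 0.00684). Mcm5 read 6.42, 6.66, 6.54 and 6.44 against 6.09, 6.11, 6.26 and 6.32, also without overlap (-0.32 ± 0.07, adjusted p = 0.0118). Pcna rose slightly, from 9.20, 9.12, 9.22 and 9.20 to 9.40, 9.36, 9.32 and 9.27 (0.15 ± 0.05, adjusted p = 0.0394). Its second probe set gave 0.16, and the call held in 1 of 8 fits that left out an array. The other 4 helicase subunits ranged from -0.13 (Mcm2) to 0.02 (Mcm6), and the 4 mitosis genes tested, Ccna2, Mki67, Cdk1 and Ccnb2, from 0.12 to 0.31 with none called (limma, 0 at an unadjusted p under 0.05). In the same kidneys macrophage genes fell for 6 of 7, with means of 6.36 to 6.48 on control and 6.04 to 6.17 on swim arrays, B cell genes for 2 of 4 (5.76 to 6.06 against 5.52 to 5.60) and megakaryocyte genes for 2 of 4 (5.90 to 5.96 against 5.64 to 5.84), and their part in the members' values was not tested. On the values as deposited no kidney member was called, and calls over all genes were 28 higher and 14 lower, against 1258 and 1578 (735 and 2056 with arrays centred on their medians).

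In visceral fat, the fat around the internal organs, 1 of 17 tested members changed, where 23.4% of all 11463 genes did. Mcm7 fell, from 8.84, 8.72, 8.56 and 8.56 to 8.29, 8.45, 8.21 and 8.18, with no overlap (-0.39 ± 0.09, adjusted p = 0.0167). Mcm3 read 6.55, 6.48, 6.54 and 6.41 against 6.36, 6.32, 6.23 and 6.13 (-0.24 ± 0.08), without overlap and just above the threshold. Of 11 replication genes 8 were negative, with a median of -0.10 against -0.03 over all genes. The 6 mitosis genes tested, led by Mki67 at 0.28 ± 0.25, were all positive and none was called (limma, 0 at an unadjusted p under 0.05). Endothelial genes rose in the same fat for 7 of 11, with means of 8.41 to 8.83 on control and 8.74 to 8.99 on swim arrays, and megakaryocyte genes fell for 3 of 7 (6.49 to 6.69 against 6.17 to 6.45), and their part was not tested. With arrays centred on their medians 3 members fell (Mcm4, Mcm7 and Pcna), beside 697 higher and 4512 lower calls over all genes, against 1295 and 1382.

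In subcutaneous fat no member of 25 and no gene of 11548 passed limma's test (0%), and 7 members and 2489 genes had an unadjusted p under 0.05. Of the 25 members 23 were negative, with a median of -0.58 against 0.05 over all genes. Plk1 read 5.90, 7.09, 7.48 and 7.21 on control and 5.85, 5.90, 6.29 and 6.19 on swim arrays (-0.86 ± 0.33, adjusted p = 0.216). Control 17 sat with the swim arrays, and the other 3 controls stood above all of them. Mcm7 read 8.32, 8.93, 8.75 and 9.30 against 8.28, 7.75, 8.35 and 8.29, with the same 3 controls high (-0.66 ± 0.24, adjusted p = 0.212). Mcm3 (-0.86 ± 0.31), Cdc20 (-0.60 ± 0.21) and Aurka (-0.53 ± 0.19) had the other smallest p-values.

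Controls 18, 19 and 20 were the 3 highest arrays for 22 of the 25 members tested, and lymphoid markers were high on these 3 and, to a lesser degree, on swim 22 and 23. B cell genes averaged 5.71, 11.02, 11.04 and 10.98 on control and 5.75, 8.81, 10.02 and 5.39 on swim arrays, and T and NK cell genes 5.52, 9.09, 9.29 and 9.36 against 5.52, 7.12, 8.31 and 5.62. With the B cell mean as a covariate, chosen after seeing the data, the members' median was -0.21 and 0 of 25 were called (limma, 0 at an unadjusted p under 0.05). That mean was high on the same controls as the members, so this fit cannot tell where their difference came from. Without control 17, 19 of 24 members fell, with a median of -0.88, where 16.4% of all 11522 genes fell in that fit. The members' change in fat cells themselves was not measured by these arrays.

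In brain no member of 9 passed limma's test, and 1 had an unadjusted p under 0.05, where 0.482% of all 11621 genes were called. That was Ccnb2, which read 6.44, 6.50, 6.73 and 6.61 on control and 6.72, 6.88, 6.84 and 7.06 on swim arrays (0.30 ± 0.09, adjusted p = 0.177). Its groups met, with swim 37 beside control 35. The 5 helicase subunits tested ranged from -0.12 (Mcm5) to -0.02 (Mcm4).

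In muscle, the tissue that does the work of swimming, no member of 12 passed limma's test and 1 had an unadjusted p under 0.05, where 11.4% of all 11347 genes were called. Ccnb2 read 6.18, 6.58, 5.63 and 6.08 on control and 5.69, 5.72 and 5.55 on swim arrays, with control 43 among the swim values (-0.46 ± 0.19, adjusted p = 0.146). Aurka read 5.87, 5.89, 7.52 and 6.02 against 5.80, 5.55 and 5.79 (-0.61 ± 0.38, adjusted p = 0.302) with control 43 standing alone. The 5 helicase subunits tested ranged from -0.08 (Mcm7) to 0.07 (Mcm2), and Rrm1, the member high in resting muscle, was at 0.00 ± 0.08. Calls over all genes, 645 higher and 644 lower, became 89 and 304 on the values as deposited, and 211 and 679 once each array was centred on its median.

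**Figure D5:**
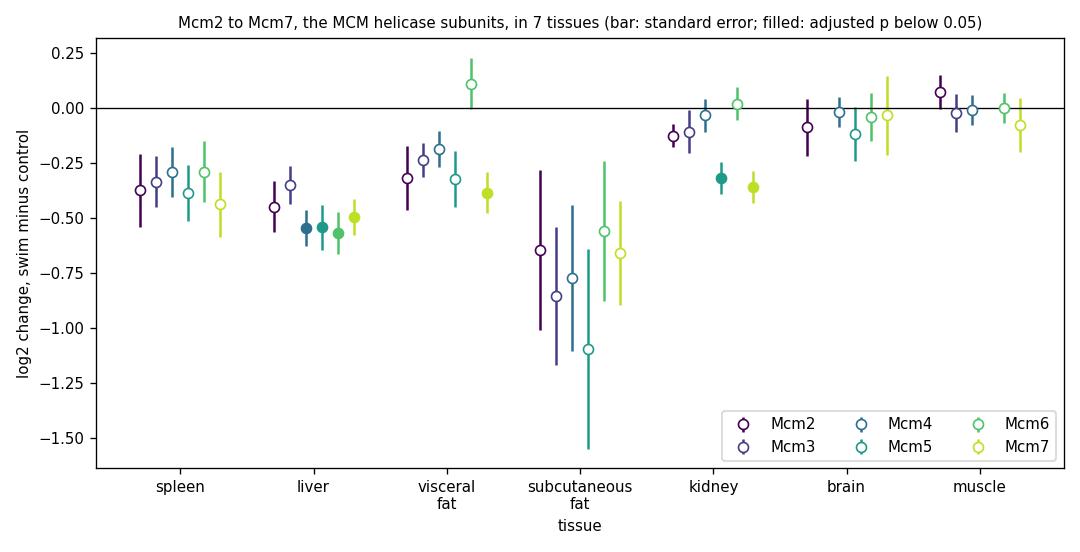
Swim minus control (log2, with SE bars) for Mcm2 to Mcm7 in each tissue, filled where the adjusted p was under 0.05. Mcm7 lies below 0 in 7 of 7 tissues and is filled in liver, visceral fat and kidney, and the points of brain and muscle lie near 0. In subcutaneous fat, controls 18, 19 and 20 carried spleen markers.

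The helicase subunits were then followed across tissues. Mcm7 was negative in 7 of 7 tissues, from -0.66 to -0.03, and fell in 3, liver, visceral fat and kidney. The -0.66 was that of subcutaneous fat, where controls 18, 19 and 20 carried spleen markers. In brain and muscle Mcm7 was at -0.03 and -0.08, against a median of -0.02 over all genes in each. Mcm7 was negative in 7 under each scaling, and in 6 of 7 relative to the median of all genes on values as deposited or centred. Mcm5 was negative in 6 of 6 tissues tested and fell in liver and kidney. Mcm4 and Mcm6 fell in liver, and did not pass in the other 6 tissues in the reported fits. Under other settings both fell in spleen (values as deposited, or without swim 30) and in subcutaneous fat (without control 17, with array weights, or in 1 fit of all 54 arrays), and Mcm4 fell in visceral fat with centred arrays. Mcm6 had positive values in visceral fat (0.11) and kidney (0.02). Mcm2 and Mcm3 passed in no tissue in the reported fits. Under other settings they did, as in subcutaneous fat without control 17 and in spleen on values as deposited. Tk1 was positive in liver and visceral fat and negative in the other 4 tissues tested. No mitosis gene passed in any of the 7 tissues in the reported fits. Under other settings some did. Every mitosis gene on the array fell in spleen on values as deposited, and Ccnb2 fell in liver without control 50. In subcutaneous fat without control 17, 11 of 12 fell, where 16.4% of all genes did. All controls left in that fit carried spleen markers. Top2a, the topoisomerase that untangles sister chromosomes, has 3 probe sets that differ in liver (-0.78, 0.02 and -0.33), so its direction there is not settled.

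Other genes of the same machinery were read as lists chosen with earlier results of these data known. Of 37 further replication genes tested in spleen, 4 fell and 1 rose, where 14.0% of all genes were called in either direction. Cdt1, which loads the helicase with Cdc6, read 8.59, 8.60, 8.56 and 8.60 on control and 7.82, 8.08, 7.64 and 7.81 on swim arrays (-0.75 ± 0.08, adjusted p = 0.00497). All 4 swim arrays lay below the 4 controls. Pold2, a subunit of polymerase delta, fell in spleen (-0.35 ± 0.07), visceral fat (-0.39 ± 0.08) and kidney (-0.22 ± 0.07). Pola2, the regulatory subunit of polymerase alpha, fell in spleen (-0.34 ± 0.08) and kidney (-0.34 ± 0.06), as did Tipin, a fork protection factor named for both after its values were seen (-0.51 ± 0.15 and -0.30 ± 0.07). Mcmbp, which binds Mcm2 to Mcm7, rose in spleen (0.24 ± 0.06).

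In liver, where 4.00% of all genes were called, 1 of 29 further replication genes passed, Prim1, the catalytic subunit of primase, which fell from 6.52, 6.51 and 6.50 to 5.88, 5.97, 5.36 and 5.46 (-0.84 ± 0.15, adjusted p = 0.0243). In visceral fat (23.4% of all genes called) 2 of 25 fell, Pold2 and Rfc1, the large subunit of the clamp loader (-0.34 ± 0.09), and in kidney (24.4%) 4 of 27, with Pole2, a subunit of polymerase epsilon (-0.30 ± 0.08), the fourth. In muscle (11.4%) 1 of 23 fell, Gmnn, the inhibitor of Cdt1 (-0.49 ± 0.12). None of 32 passed in subcutaneous fat nor of 26 in brain (limma, 9 and 3 at an unadjusted p under 0.05).

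Further mitosis genes gave few calls. In spleen 0 of 47 passed limma's test (9 at an unadjusted p under 0.05) and 46 were negative, with a median of -0.35. In liver 0 of 18 passed (8 at an unadjusted p under 0.05), in subcutaneous fat 0 of 27 (5) and in brain 0 of 12 (3). Kif15, a spindle motor (0.46 ± 0.08), and Cdc25b, the phosphatase that activates Cdk1 (0.36 ± 0.08), rose in visceral fat, 2 of 17, where 23.4% of all genes were called. Cdca3, a trigger of mitotic entry, rose in kidney (0.23 ± 0.06), 1 of 14 against 24.4% of all genes, and fell in muscle (-0.33 ± 0.08), 1 of 12 against 11.4%.

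Of the genes that govern entry into replication, 2 of 18 were called in spleen, against 14.0% of all genes, 6 of 15 in visceral fat (23.4%), 3 of 15 in kidney (24.4%) and 3 of 14 in muscle (11.4%). Ccnd3, a D-type cyclin, fell in spleen, from 9.94, 9.99, 9.92 and 9.98 to 9.52, 9.68, 9.37 and 9.45 (-0.46 ± 0.07, adjusted p = 0.0087), and also in visceral fat (-0.29 ± 0.08) and kidney (-0.29 ± 0.07). Ccnd2, its paralog, rose in spleen (0.42 ± 0.07) and muscle (0.70 ± 0.09). In visceral fat 4 rose, led by Cdk2, Cdk6 and Rb1, and 2 fell, Myc (-0.85 ± 0.16) and Ccnd3, which was named there after its values were seen. In kidney 1 rose, Rb1, and 2 fell, Ccnd3 and E2f1. In muscle 2 rose, Ccnd2 and Myc (0.51 ± 0.10), and 1 fell, E2f3 (-0.38 ± 0.07). In liver 0 of 17 passed limma's test, with 3 at an unadjusted p under 0.05, and in subcutaneous fat and brain 0 of 17 and 0 of 12, with 4 and 1.

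Among inhibitors of the cycle, Cdkn1a, which encodes p21, fell in 3 tissues. In liver the swim arrays read 5.50, 5.77, 5.26 and 5.42, all below the lowest control array at 6.26 (-1.73 ± 0.35, adjusted p = 0.0371). That call rests on 3 control arrays, and calls of genes outside the members were not checked by leaving out single arrays. In visceral fat it read 9.38, 10.13, 9.63 and 9.61 against 8.43, 7.82, 7.61 and 7.60 (-1.82 ± 0.20, adjusted p = 0.000641). In kidney it read 7.63, 7.89, 8.49 and 7.82 against 6.79, 6.60, 6.74 and 6.71 (-1.25 ± 0.15, adjusted p = 0.000546). The groups did not overlap in any of these 3 tissues. In visceral fat Btg1 also fell (-0.46 ± 0.07), so 2 of 11 were called, against 23.4% of all genes, and in kidney Cdkn2d fell (-0.24 ± 0.06) while Cdkn1c (0.49 ± 0.08) and Gas1 (0.27 ± 0.08) rose, so 4 of 11 were called, against 24.4%. No inhibitor passed limma's test of 10 in spleen, 11 in subcutaneous fat, 10 in brain or 11 in muscle (4, 3, 2 and 3 at an unadjusted p under 0.05). The swim effect on Ccnd3 was lower in spleen than in liver (-0.66 ± 0.12, adjusted p = 0.00478) and that on Cdkn1a higher (1.33 ± 0.38, adjusted p = 0.041).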

How the data were processed

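RNA of 7 tissues was hybridised to 54 Affymetrix arrays, 1 sample each. The deposited value table gives each probe set a linear intensity per array. PLIER and limma are named in the submitters' processing notes, and the genome build behind the probe sets is not given in the sources used here. Array medians of the deposited intensity ran from 45.92 to 118.65, and the number of arrays limits the precision. Of 25917 probe sets, the platform annotation gave 21086 a single symbol, 1867 several and 2964 none.

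From these values log2(intensity + 16) was computed and quantile normalized within each tissue. Probe sets whose mean fell in the bottom 40% were dropped, and a gene took the probe set with its highest mean. Each tissue was fitted apart with limma 3.58.1 (R 4.3.3), 2-sided, with Benjamini-Hochberg adjustment over all genes tested and a threshold of 0.05. Spleen and liver effects were compared in 1 model of 15 arrays, and levels at rest in 1 model of the 27 control arrays without the filter. The code was tested on simulated data.

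The members and the gene lists were chosen with earlier results of these data known. Named by value were the members past the threshold in a tissue (or, with none, up to 5 of smallest p), those extreme at rest, and up to 4 genes of smallest p per list and tissue. Further members were named outside this rule, such as Mki67, Rrm2 and Pcna in spleen and Mcm2, Mcm3 and Ccnb2 in liver. Alternatives covered the values as deposited, arrays centred on their medians, pseudocounts of 1 and 64, no filter, limma's trend and robust options, array weights, the mean of all probe sets, 1 fit of all 54 arrays, and leaving out each array. Promoters and start sites come from RefSeq on GRCm38.p6.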

Additional observations from a re-analysis of the deposited data

Results flagged for a closer look

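Sets of 4 values were examined, each set a named member or a list mean in 1 group of 4 arrays. Of 72 such sets, 10 (13.9%) held 1 array far from the others. Chance flags about 1 in 20 independent sets, but these share arrays and related genes, so the rates cannot be compared directly. Aurka read 7.52 on muscle control 43, against 5.87 to 6.02 on the other controls, and 5.80 on subcutaneous fat control 17, against 6.41 to 6.52. Cdc45 read 6.34 on muscle control 42, the others 6.16 to 6.19. Mcm7 read 7.75 on subcutaneous fat swim 22, the array that also carried kidney markers, the others 8.28 to 8.35. The mean of the replication genes was 6.85 on subcutaneous fat control 17, the control without lymphoid markers, against 7.70 to 7.83. In kidney that mean was 6.75 on control 9, against 6.85 on the other 3, and 6.68 on swim 14, against 6.77 to 6.78. The mean of the mitosis genes was 9.28 on spleen control 26, the array that also carried liver markers, against 8.98 to 9.02. It was 5.36 on liver swim 56, against 5.45 to 5.46, and 5.36 on brain swim 40, against 5.26 to 5.27.

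Tk1 differed between tissues: its swim effect in spleen minus that in liver was -1.19, by a test of the difference itself.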

How the results depend on the processing

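Of 210 alternative counts, 175 stayed within 1.5 times the reported one, and the cause of the others was not tested. Where the text gives no share or count of all genes called in the same fit, an alternative count is not a result about members. On values as deposited the count of members called became 30 in spleen (reported 0), 11 in liver (5), 0 in visceral fat (1), 0 in kidney (3) and 1 in muscle (0). With arrays centred on their medians it became 5 in spleen, 3 in visceral fat and 19 at rest in liver (12). Fitting all 54 arrays at once gave 3 in spleen, 0 in liver, 0 in visceral fat, 14 in subcutaneous fat (0) and 0 in kidney. Array weights gave 1 in spleen, 19 in subcutaneous fat and 3 in brain (0). A pseudocount of 64, the trend and robust options and the mean of all probe sets each gave 1 in spleen, a pseudocount of 1 and the mean of all probe sets each gave 2 in visceral fat, and the low-signal filter gave 6 at rest in liver. Leaving out each array in turn gave 0 to 20 in spleen, 1 to 6 in liver, 1 to 3 in visceral fat, 0 to 19 in subcutaneous fat, 2 to 3 in kidney, 0 to 0 in brain, 0 to 1 in muscle, 1 to 2 for spleen against liver, 30 to 30 at rest in spleen and 5 to 15 at rest in liver. Of 653 values of single members, 566 kept direction and side of the threshold, 40 passed only in the report, 40 only in the alternative, and 7 changed sign: Bub1b in brain to -0.13 with array weights, Mcm6 in brain to 0.0057 with centred arrays and, with each array left out in turn, to between -0.12 and 0.0092 (positive without control 34, control 36 or swim 40), and Cdc45 and Mcm2 in muscle to -0.012 and -0.11 on values as deposited. No paired analysis was possible because no replicate number is shared between groups. Members with signals near the low end of the array have no usable test, most often mitosis genes outside spleen.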
